A study of Arabis alpina with 12 samples.

Results

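In young leaves of Arabis alpina, a perennial relative of Arabidopsis, 292 genes carried H3K4me3 and DNA methylation (5mC) on their span without H3K27me3 or H3K27me1. They were chosen from the 24657 genes with an mRNA value (the listed genes) by called domains alone. At least 200 bp of the span, start to end, had to lie in H3K4me3 domains and at least 200 bp in 5mC domains. Less than 200 bp was allowed in domains of H3K27me3 and of H3K27me1. The same minimum over all listed genes called 76.2% for H3K4me3, 5.41% for 5mC, 13.1% for H3K27me3 and 4.6% for H3K27me1. The 292 genes were 1.18% of listed genes, 21.9% of the 1335 genes with 5mC and 1.55% of the 18794 genes with H3K4me3.

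The plants, of accession Pajares, had no treatment named in the labels and grew on soil in long days (16 h light, 8 h darkness) at 22.5 °C. Chromatin immunoprecipitation was done for each histone mark in 2 libraries with 1 input library. Methylated DNA was immunoprecipitated (MeDIP) in 2 libraries with 2 inputs, and mRNA was sequenced in 1 library, which makes 12 libraries in all. Each mark is given as 1 domain list and mRNA as 1 value per gene, so the spread between replicates is unknown, and so is the depth of every library. Genes are not replicates, so no p-value was computed. Intervals are exact 95% intervals for shares and order-statistic 95% intervals for medians, and they cover counting error only.

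H3K4me3 is placed at the starts of transcribed genes in plants. Cytosine methylation lies on transposons and repeats, where in Arabidopsis it goes with H3K27me1 and H3K9me2 and with silencing. It is also found, in the CG context alone, inside the transcribed part of many active genes, which is called gene body methylation. In Arabidopsis, DNA methylation and H3K4me3 are mostly found on different sequences. MeDIP does not separate cytosine contexts. The files pair the gene identifiers with no names, functions or strand, so the leaf tissue could not be checked by marker genes. No reference genome was used, so no sequence is shown.

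5mC and H3K4me3 mostly occupied different parts of the same gene. The marks shared bases in 76 of the 292 genes (26.0%, 21.1% to 31.5%). In a further 44 genes they touched without a shared base, and in the remaining genes a gap lay between them. Where bases were shared, the median overlap was 216 bp, which was 50% of the 5mC in the span. In 17 genes all 5mC of the span lay inside H3K4me3. Summed over the 292 spans, 5mC covered 9.15% of the H3K4me3 bases and 18.9% of the other bases.

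The gap between the marks had a median of 150 bp over all 292 genes (150 to 300 bp), with genes that shared or touched counted as 0. Among the 216 genes without a shared base it was 450 bp (450 to 600 bp), with quartiles of 150 and 1200 bp. The gap was over 1 kb in 67 genes and over 2 kb in 20. Domain starts and lengths in both lists are whole multiples of 150 bp, so shorter gaps cannot be resolved. A gene must hold 200 bp of each mark, so short genes have little room for a gap.

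**Figure D1:**
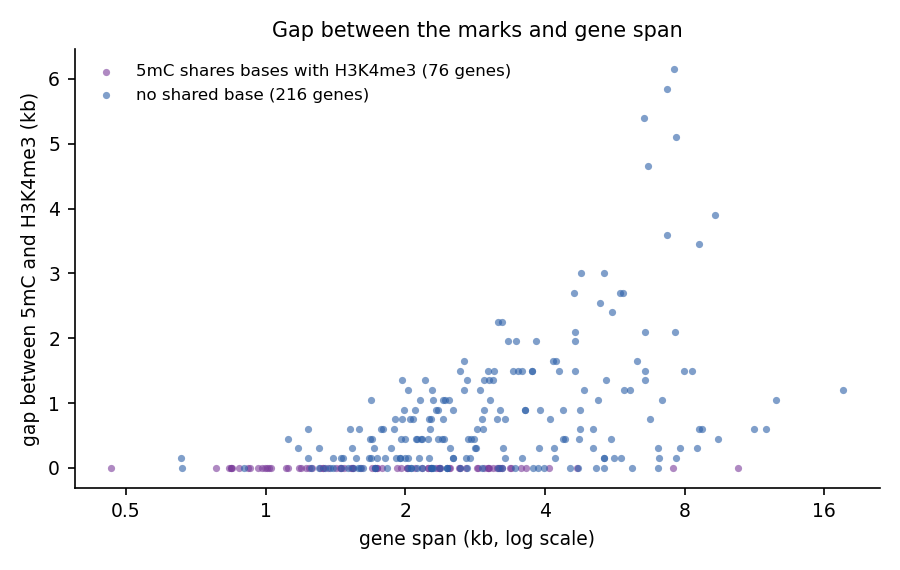
Gap between in-span 5mC and in-span H3K4me3 in kb against gene span in kb (log scale), 1 point per gene. Genes whose marks share bases sit at 0, and gaps over 2 kb are found in 20 genes, the widest being 6150 bp.

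Because the files give no strand, each span was read from the end nearer to its H3K4me3, called here the H3K4me3 end. H3K4me3 lay at that end, with at least 150 bp of the outermost 300 bp, in 234 of 292 genes (80.1%), and at the far end in 19. In the 16545 genes with H3K4me3 as the only mark the share at the nearer end was 93.5% (93.2% to 93.9%). Its midpoint had a median position of 20.4% of the span, against 20.2% in those genes. By this reading the H3K4me3 midpoint is always in the nearer part of the span, so a mark placed anywhere would tend to lie beyond it.

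Read in this way, 5mC was thin at the H3K4me3 end and densest towards the far end. Its midpoint had a median position of 64.1% of the span (57.3% to 68.8%), and 70.4% where no base was shared. The midpoint fell in the first 20% of the span in 29 genes and in the last 20% in 78. In the outermost 5% at the H3K4me3 end, domains of 5mC covered on average 9.0% of bases. The level reached 36.0% between 75% and 80% of the span and was 27.7% in the last 5%. H3K4me3 went the other way, from 78.0% between 10% and 15% of the span to 3.36% in the last 5%. All 5mC of the span lay on 1 side of the H3K4me3 midpoint in 262 genes (89.7%, 85.7% to 93.0%). Genes whose marks share bases can count here. In 260 genes a single 5mC domain touched the span, and 1 short domain seldom lies across a given point. All 5mC lay beyond the outermost H3K4me3 bases on 1 side in 202 (69.2%). Only 6 genes had 5mC on both sides of all their H3K4me3. These positions and levels include 5mC domains that ran past the far end, in 68 genes, or past the H3K4me3 end, in 27. No separate profile was made for the 199 genes with 5mC wholly inside the span. In the 12 genes of 8 kb or more the median position of 5mC was 42.8% of the span.

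**Figure D2:**
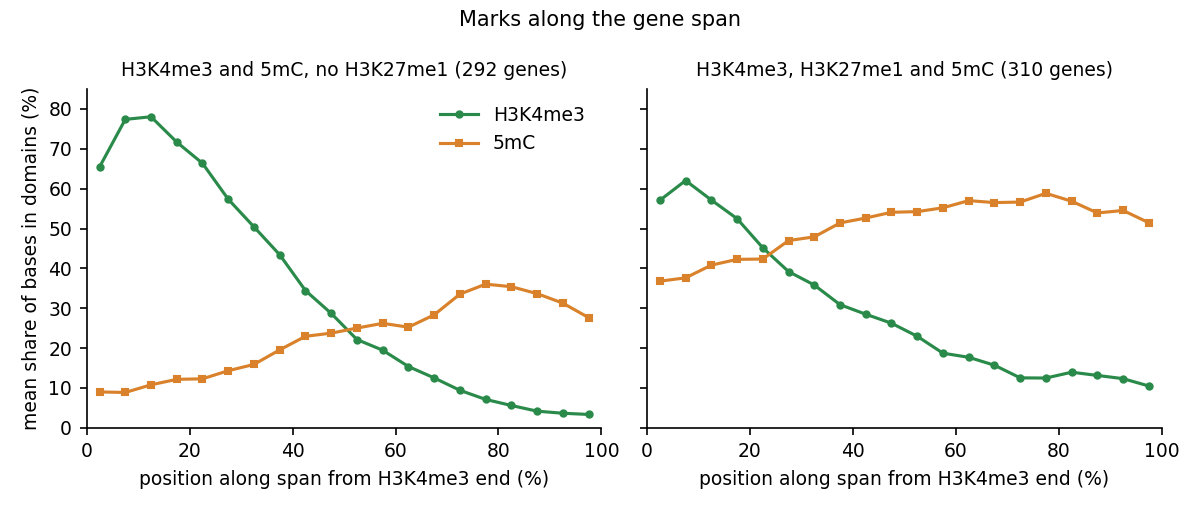
Mean share of bases in H3K4me3 and 5mC domains in 20 equal parts of the gene span, read from the H3K4me3 end, for the 292 genes (left) and for 310 genes that also carry H3K27me1 (right). On the left 5mC is 9.0% in the first 5% of the span, 36.0% between 75% and 80% and 27.7% in the last 5%. H3K4me3 is highest, at 78.0%, between 10% and 15% and is 3.36% in the last 5%. On the right 5mC also rises, from 36.8% in the first 5% to 58.8% between 75% and 80%.

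The 310 genes with H3K4me3, 5mC and also H3K27me1 differed in part in their layout. The marks H3K4me3 and 5mC shared bases in 184 of them (59.4%, 53.7% to 64.9%). 5mC covered 45.3% of their H3K4me3 bases and 45.5% of the other span bases, so these summed shares were nearly equal. Along the span 5mC also rose towards the far end in these genes. It covered 36.8% of bases in the first 5%, 58.8% between 75% and 80% and 51.4% in the last 5%. All 5mC lay on 1 side of the H3K4me3 midpoint in 43.5% of them. Part of this comparison follows from extent, since 5mC covered a median of 48.0% of their spans (median span 4634.5 bp) and 17.3% of the spans of the 292 genes. Its midpoint lay beyond the H3K4me3 midpoint in 85.2% of the 310 and in 87.0% of the 292, so this share alone did not set them apart.

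With all domains used, 5mC was a short stretch inside the gene in most of the 292 genes. It was wholly inside the span, not running past either end, in 199 genes (68.2%, 62.5% to 73.5%). It ran past an end in 31.8%. This share was 49.0% in the 149 genes found with only domains of at least the median length, a limit set for every mark. With all domains, 5mC ran past the far end in 68 genes and past the H3K4me3 end in 27, with 2 genes in both counts. By comparison it was wholly inside in 38.1% of the 310 genes with H3K27me1 and in 40.5% of the 126 genes with 5mC as the only mark. No allowance was made for span or for the extent of 5mC, in which these sets differ. The 126 genes had a median span of 1571 bp. 5mC covered a median of 34.5% of their spans, 48.0% in the 310 and 17.3% in the 292. Of the 292 genes, the 91 under 2 kb held 5mC wholly inside in 52.7%. Among the 292, a single 5mC domain touched the span in 260 genes, 2 domains in 27 and 3 domains in 5. In-span 5mC had a median of 450 bp, with quartiles of 300 and 622 bp and a range from 200 to 2550 bp. It covered at least 50% of the span in 24 genes, whose median span was 1238 bp.

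The 5mC domains were shorter than those of the whole list but not of lower score. The 328 domains that touched the 292 spans had a median length of 450 bp, against 600 bp for all 61122. Their median score per kb was 768.3 (736.7 to 806.7), against 673.3 for all domains. The score is the authors' whole number per domain, unlabelled, and is compared here only within a list. H3K27me1 touched 29 of the 328 domains (8.84%) and 63.3% of all 5mC domains. This follows in part from the rule, which bars H3K27me1 from the span. The 323 H3K4me3 domains on the 292 genes had a median score per kb of 903.3 (856.7 to 940), against 938.3 (930.7 to 945.2) for the domains on genes with H3K4me3 alone. Both were above the 512.8 of the domains on the 310 genes with H3K27me1. The H3K4me3 bases in the span had a median of 750 bp in the 292 genes and in the genes with H3K4me3 alone.

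The 292 genes were somewhat longer than genes with H3K4me3 alone, with a median span of 2496 bp (2335 to 2807 bp) against 2195 bp (2174 to 2221 bp). Of the genes under 2 kb with H3K4me3 and neither H3K27 mark, 1.26% (1.01% to 1.54%) also had 5mC. This share was 1.77% at 2 to 4 kb, 2.93% (2.25% to 3.75%) at 4 to 8 kb and 4.44% (2.32% to 7.63%) at 8 kb or more. A longer span offers more room for 200 bp of any mark, and no allowance was made for that. The length of in-span 5mC hardly followed the span (Spearman rho = 0.072 across the 292 genes).

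Layout changed with span. Among the 91 genes under 2 kb the marks shared bases in 41 (45.1%), and 5mC ran past an end in 43. Among the 128 genes of 2 to 4 kb these counts were 31 (24.2%) and 39. Among the 61 genes of 4 to 8 kb they were 3 and 11, and among the 12 genes of 8 kb or more they were 1 and 0. All 12 of the longest genes thus held their 5mC inside the span. The median share of span in 5mC was 28.0% under 2 kb, 15.4% at 2 to 4 kb, 6.74% at 4 to 8 kb and 6.91% at 8 kb or more. The median position of 5mC was 68.8%, 64.9%, 56.9% and 42.8% of the span in the same order.

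Single genes show the range of layouts. Aa_G145760 and Aa_G542790 were nearest the median position of 5mC. Aa_G145760 (chromosome 4, 18911727 to 18914581) had 1050 bp of H3K4me3, then 600 bp free of both marks, then 300 bp of 5mC, and an mRNA coverage of 16.2. Aa_G542790 (chromosome 4, 15856644 to 15858755) had 755 bp of H3K4me3, a gap of 450 bp and 300 bp of 5mC, with a coverage of 3.75. In both genes H3K4me3 was near 1 end and 5mC inside the span.

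The widest gaps put 5mC near the far end. In Aa_G474760 (chromosome 2, 9855102 to 9862681) 6150 bp separated the marks, and 5mC was centred at 94.4% of the span. In Aa_G458310 (chromosome 1, 16507694 to 16515035) the gap was 5850 bp and the 5mC domain ran past the far end.

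The 2 genes with the most 5mC bases had spans of 5372 and 8707 bp. Aa_G496530 (chromosome 4, 11343491 to 11348862) had 2550 bp in 3 domains, 47.5% of its span, beginning 150 bp from its H3K4me3. Its coverage was 4.10. Aa_G8270 (chromosome 2, 6894553 to 6903259) had 2400 bp in 3 domains that lay between a pair of H3K4me3 domains, and a coverage of 34.6.

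The longest span was that of Aa_G382660 (scaff_42301_1, 29206 to 46771), at 17566 bp, with H3K4me3 centred at 36.1% of the span rather than at an end. Its coverage was 1, the lowest value listed. Aa_G621030 (chromosome 8, 37757782 to 37770356), at 12575 bp, had 450 bp of each mark in its first 20% and a coverage of 16.9. Aa_G53320 (chromosome 6, 967944 to 975288) was the next longest at a coverage of 1, with 450 bp of H3K4me3 and a gap of 3600 bp.

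The genes with the most shared bases, or the largest share of span in 5mC, had spans from 835 to 2875 bp. Aa_G437570 (chromosome 1, 9309270 to 9310193) was the only gene with 1 5mC domain over its whole span of 924 bp. It also held 181 bp of H3K27me1, just under the minimum, and its coverage was 12.3. In Aa_G243020 (chromosome 3, 14614605 to 14615439) all 750 bp of H3K4me3 lay in 5mC, with a coverage of 4.40. Aa_G249940 (chromosome 4, 22822232 to 22823561) shared 900 bp, the most of all, and had a coverage of 52.5. Its 5mC domain had 3.01 times and its H3K4me3 domain 2.49 times the median score per kb of their lists. Aa_G721800 (chromosome 2, 21419537 to 21422411) lay wholly in H3K4me3, shared 764 bp at 1 end with a 5mC domain that began outside it, and had a coverage of 33.9. Aa_G685530 (scaff_41246_1, 28767 to 29681) held the 5mC domain of highest score per kb, 6.62 times the list median, inside an H3K4me3 domain of 5.72 times its own. That H3K4me3 domain ran past both ends of the 915 bp span, and the coverage of the gene was 2.15. Aa_G479800 (chromosome 1, 16799395 to 16801379) held the next 5mC domain by score per kb, 3.54 times the median. Its 5mC ran past the far end with no shared base, and its coverage was 2.80.

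**Figure D3:**
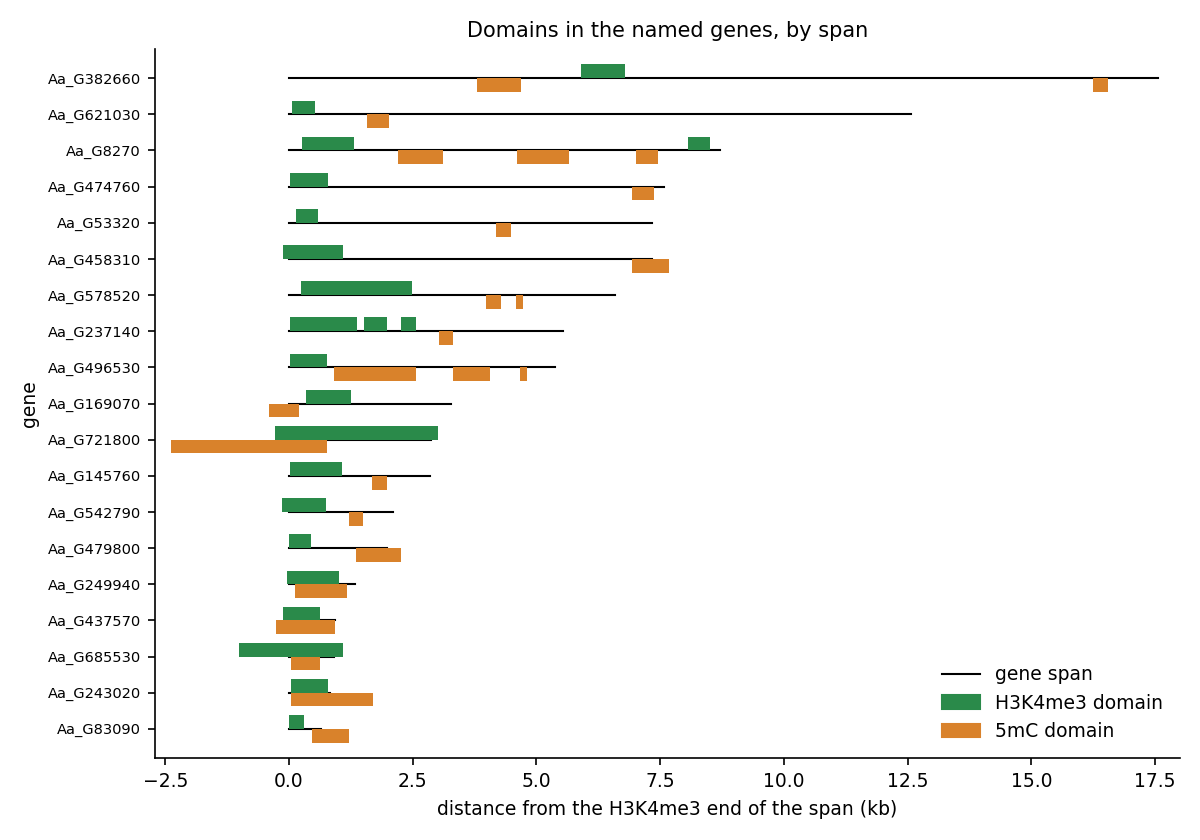
Domains of H3K4me3 (green, above the line) and 5mC (orange, below) in the genes named in the text, against the distance from the H3K4me3 end in kb; the line is the gene span. Most genes over 2 kb hold the marks apart, as in Aa_G474760 with a gap of 6150 bp, while several under 2 kb hold them one over the other.

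The median mRNA coverage of the 292 genes was below that of genes with H3K4me3 alone. It was above those of genes with H3K4me3, H3K27me1 and 5mC and of genes with 5mC alone. The value is the coverage of the exons of each gene in the 1 library, never below 1. The lowest, median and highest were 1, 5.90 (5.29 to 6.61) and 793.0, with quartiles of 3.27 and 11.9. Genes with H3K4me3 alone had a median of 8.05 (7.87 to 8.20), a difference of -0.39 in log2(coverage + 1), the 292 genes minus those. With only domains of at least the median length of their list, for every mark, this difference was -0.75. In that setting short H3K27me1 and H3K27me3 domains no longer excluded a gene. With the upper 50% of 5mC and H3K4me3 domains by score per kb it was -0.29. All listed genes had a median of 5.77, a difference of 0.027. The 310 genes with H3K27me1 in addition had a median of 1.75 (1.42 to 2.00) and the 126 genes with 5mC alone also 1.75 (1.49 to 2.15). The 292 genes were thus 1.33 higher than either set on this scale. The ranges of all these sets overlap widely.

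The shares of the 292 genes at low and high mRNA coverage are given beside the same shares over all listed genes and over genes with H3K4me3 alone. Coverage was 1 in 10 genes (3.42%, 1.65% to 6.21%), against a background of 8.86% of all listed genes and 1.15% of genes with H3K4me3 alone. It exceeded the median over all listed genes in 152 (52.1%), against 50% and 63.6%. It was at least 2 times that median in 76 (26.0%), against 28% and 36.1%. It was at most 0.5 times that median in 59 (20.2%), against 30% and 14.6%. Coverage was over 100 in 6 genes (2.05%, 0.758% to 4.42%), against 2.5% and 3.13%. In the lowest 10% of listed genes by coverage, 11 of the 272 genes with H3K4me3 and neither H3K27 mark were among the 292 (4.04%). This share was 2.12% in the sixth group of 10 and 0.831% in the highest. Between the lowest and highest groups it ranged from 1.31% to 2.42%, with no steady fall. Of all listed genes, the 292 genes made up 0.446% in the lowest group, 1.78% in the sixth and 0.73% in the highest.

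**Figure D4:**
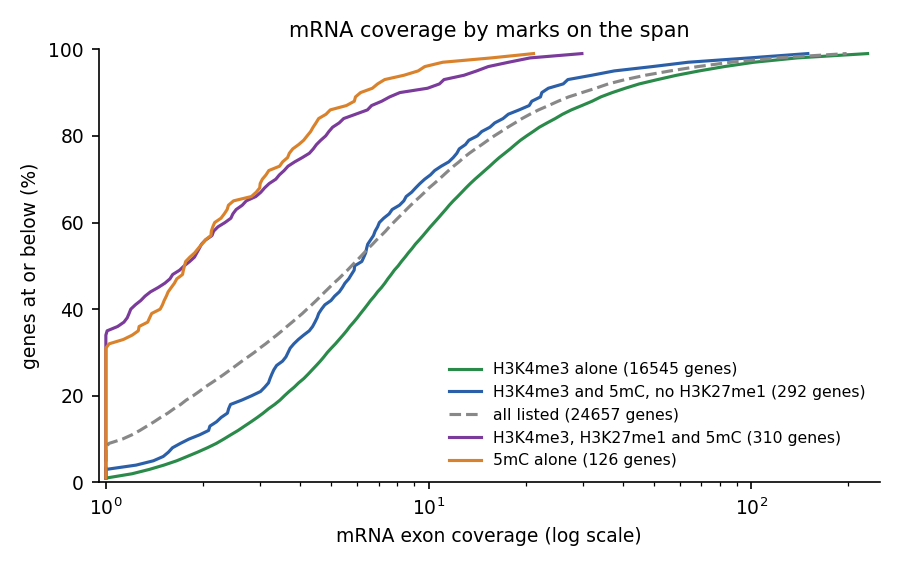
Cumulative share of genes against mRNA exon coverage (log scale) for sets defined by the marks on their span, drawn from the 1st to the 99th percentile. The 292 genes with H3K4me3 and 5mC, median 5.90, run between genes with H3K4me3 alone, median 8.05, and the sets at a median of 1.75.

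The difference from genes with H3K4me3 alone was widest among short genes. Under 2 kb the median was 5.25 (3.69 to 6.64) against 8.86 (8.53 to 9.15), which on the log2 scale is a difference of -0.66. At 2 to 4 kb they were 5.98 and 7.91 (-0.35), and at 4 to 8 kb 6.38 and 7.16 (-0.14). At 8 kb or more the 12 genes had a median of 8.18 (4.54 to 16.9) against 5.94 (5.48 to 6.48), a difference of 0.40 in the other direction, with intervals that overlap. The intervals were apart under 2 kb and overlapped in each longer class. Whether the difference itself changes with span was not tested.

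**Figure D5:**
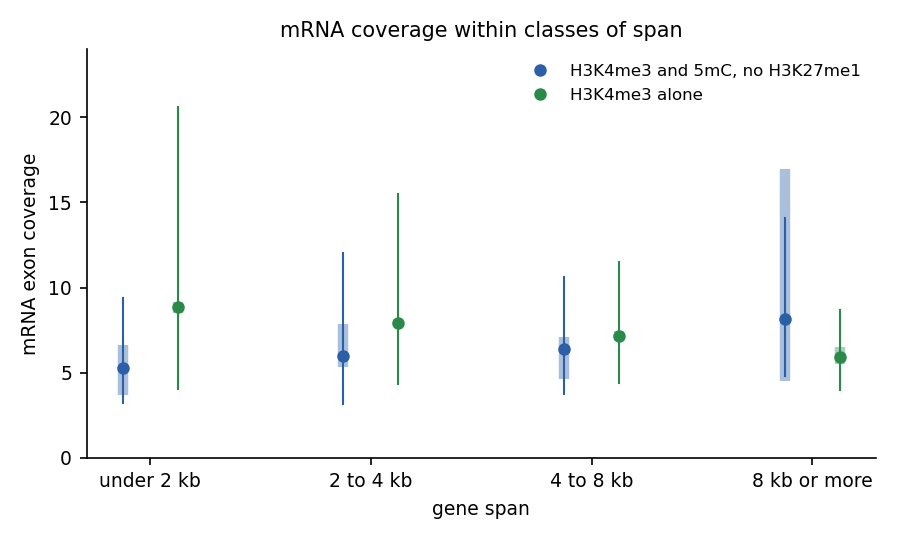
Median mRNA exon coverage by class of gene span for the 292 genes (blue) and genes with H3K4me3 alone (green). Thin lines join the quartiles and thick bars are 95% order-statistic intervals of the median, which at 8 kb or more runs from 4.54 to 16.9 for the 12 genes.

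Within the 292 genes, no layout of 5mC had a median mRNA coverage whose interval was clear of the others compared. The median was 5.77 (4.36 to 7.32) in the 76 genes with shared bases and 6.12 (5.32 to 6.80) in the 216 without. It was 6.31 (5.55 to 7.11) where 5mC was wholly inside the span, 5.09 (3.69 to 6.82) where it ran past the far end and 5.09 (3.403 to 8.43) where it ran past the H3K4me3 end. It was 4.37 (2.95 to 6.63) with the 5mC midpoint in the first 20% of the span and 6.79 (5.79 to 8.86) with it in the last 20%. All these intervals overlap. By the share of span in 5mC, the medians of 4 groups of 73 genes, from low to high share, were 6.38, 7.51, 5.72 and 5.09, while their median spans fell from 4845 to 1735 bp. In the 24 genes whose 5mC took up 50% of the span or more the median was 3.96 (2.10 to 7.66). Across the 292 genes coverage followed the share of span in 5mC weakly (rho = -0.15) and in-span H3K4me3 bp more closely (rho = 0.35). The latter was also 0.35 across genes with H3K4me3 alone. These are correlations across genes of the same library, which are not independent.

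The 2 genes of highest coverage had 5mC far inside long spans. Aa_G237140 (chromosome 7, 15310778 to 15316318) had a coverage of 793.0, with 2100 bp of H3K4me3 in 3 domains and 300 bp of 5mC after a gap of 450 bp. Aa_G578520 (chromosome 5, 6649909 to 6656489) had a coverage of 462.2, with 2250 bp of H3K4me3 and 450 bp of 5mC after a gap of 1500 bp. It also held 150 bp of H3K27me1. 5mC covered 5.41% of the first span and 6.84% of the second.

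5mC next to the span was counted with and without genes whose 5mC ran out of the span. Within 2 kb of either end, 5mC was present at 183 of 292 genes (62.7%, 56.8% to 68.2%), against a background of 37.8% of genes with H3K4me3 alone and 37.9% of all listed genes. Domains that run past an end count here. Among the 199 genes with 5mC wholly inside the span, 90 had 5mC within 2 kb (45.2%, 38.2% to 52.4%), closer to the background. Genes whose 5mC crosses an end were not taken out of the background, so these shares are not on like sets. H3K27me1 was present within 2 kb at 86 of the 292 genes (29.5%, 24.3% to 35.0%), against 19.9% and 21.4%. H3K27me3 was present at 66 (22.6%, 17.9% to 27.8%), against 18.7% and 25.2%, and H3K4me3 at 212 (72.6%), against 77.6% and 66.5%. Farther out the values were closer. Over the 50 kb on each side, 5mC covered a median of 11.4% (10.3% to 12.6%) around the 258 genes on chromosomes and 10.35% (10.2% to 10.5%) around genes with H3K4me3 alone. It covered 20.6% around the genes with H3K27me1. Unplaced scaffolds held 34 of the 292 genes (11.6%, 8.20% to 15.9%), against 4.82% of genes with H3K4me3 alone and 9.82% of all listed genes.

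Genes on either side of the limits of the rule are given as a description. Of the 292 genes, 28 had under 300 bp of 5mC, and 122 genes outside had at least 100 bp but under 200 bp and met the rest of the rule. Their median coverages were 4.98 (3.29 to 8.25) and 6.75 (5.32 to 8.51). The fewest 5mC bases, 200, were in Aa_G169070 (chromosome 8, 35440901 to 35444185, coverage 5.33) and Aa_G83090 (chromosome 6, 25219193 to 25219850, coverage 5.79). Just outside were Aa_G126860 on chromosome 4 with 198 bp (coverage 8.96) and Aa_G210260 on chromosome 4 with 194 bp (coverage 2.77). In each of these 4 genes the 5mC was the part of a domain that ran past an end of the span. Of the 292 genes, 277 had no base of H3K27me1 and 289 no base of H3K27me3. The least H3K4me3 was 232 bp, and 8 genes outside had at least 100 bp but under 200 bp of H3K4me3 and met the rest of the rule. The H3K4me3 domain also touched another listed gene in 22 of the 292 genes, so for those the mark may belong to a neighbour. Unlisted genes were not checked as neighbours, and no background was computed for this count. Without these 22 genes the share with common bases was 26.3% and the median coverage 6.12.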

How the data were processed

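The authors deposited 1 domain list per mark with a whole-number score per domain and 1 table of mRNA values, a signal that by its name is the exon coverage of each gene. Per the submitters' processing notes, Bowtie and SICER (a caller of broad domains) were used; no version is listed. For the genome build, the parameters and the way replicates were combined, nothing is stated in the labels or files; the window of 150 bp (300 bp for H3K27me3) was read from the domain coordinates. Starts in the domain lists were read as 0-based and ends as inclusive, gene starts as 1-based. Positions in the text are 1-based on the assembly the files use.

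Bases of each mark were counted per span, and gaps, positions and shares were computed with Python 3.11.15, numpy 2.4.6, pandas 2.3.3 and scipy 1.17.1, and plotted with matplotlib 3.10.9. Bases per mark, shared bases, gaps, 5mC positions and 5mC past an end were tested on simulated data base by base. The other measures, such as sides, end windows and the profile along the span, were not. Log2 differences used a pseudocount of 1. With 1 list per mark and 1 mRNA library no test across samples was possible. The members, comparison sets and measures were chosen with earlier results of these data known. Genes were named by rule: the 2 highest or lowest members for coverage, span, 5mC bases, share, overlap, gap and score per kb, those nearest the median position, and those at the 5mC limit.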

Additional observations from a re-analysis of the deposited data

How the results depend on the processing

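Of 84 alternative values, 72 stayed within the interval of the value reported, or within 1.5 times for the number of genes, 11 moved outside and 1 reversed. Setting the minimum to 400 bp for every mark left 156 genes, and its other values stayed within the intervals. In that setting genes with less than 400 bp of H3K27me1 or H3K27me3 were no longer excluded. The set with H3K4me3 alone changed in the same way. With only the upper 50% of 5mC and H3K4me3 domains by score per kb, 176 genes remained, 5mC ran past an end in 25% and median coverage was 6.86. With domains of at least the median length for every mark, H3K27me1 and H3K27me3 included, there were 149 genes. In these, 5mC ran past an end in 49.0% and median coverage was 4.72. The log2 difference to genes with H3K4me3 alone was then -0.75. With all domains, this difference by span was -0.66 under 2 kb, -0.14 at 4 to 8 kb and 0.40, reversed, at 8 kb or more. In that longest class 12 genes were measured. Counting a side from the outermost H3K4me3 bases gave 69.2% in place of 89.7%. The cause of these shifts was not tested. Alternatives chosen after seeing the data were the split by surrounding 5mC (log2 differences of -0.31 and -0.39) and leaving out genes whose H3K4me3 domain touches a neighbour.

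No paired analysis was possible because the domain lists do not separate the replicates. Leaving out a replicate could not be run for the same reason. Depth is unknown, so absence of a called domain does not show absence of the mark.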

Other observations

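The 292 genes were spread over all 8 chromosomes and the unplaced scaffolds. Their share of listed genes was highest on chromosome 6, with 46 genes (1.59%, 1.17% to 2.12%), and on chromosome 7, with 34 genes (1.55%, 1.07% to 2.15%). It was lowest on chromosome 8, with 34 genes (0.786%, 0.545% to 1.10%), and on chromosome 1, with 23 genes (0.797%, 0.506% to 1.19%). These chromosomes were picked after their values were seen. Median mRNA coverage was 3.69 (2.66 to 6.27) on scaffolds and 6.35 (5.51 to 6.83) on chromosomes. Of the genes with 5mC on scaffolds 11.9% were among the 292, against 18.6% to 32.6% on the chromosomes.

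Of the 292 genes, 3 pairs were next to each other among listed genes, and 7 genes overlapped another listed gene. The 5mC domain reached another listed gene in 13. No background was computed for these counts.

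Median mRNA coverage was also set out by the score of the 5mC domains. The 207 genes whose strongest 5mC domain was in the upper 50% of the list by score per kb had a median coverage of 6.48 (5.68 to 7.49). The other 85 had 4.55 (3.69 to 5.88). This split was chosen after seeing the data, the intervals overlap, and the difference was not tested.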
